A study of Mus musculus with 12 samples.

Results

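Late tumours of a serially transplanted mouse melanoma were compared with early ones, and 562 of 34436 genes were found whose 6 late values lay wholly above or wholly below their 6 early values. In all of these tumours YUMM1.7 melanoma cells grew in mice and the tumour was sampled whole, so that RNA of tumour and host cells was read together. The early tumours were 3 of passage F0, the first passage in syngeneic mice, and 3 of passage N2.1. The late tumours were 3 of passage Balb/c-2 and 3 of passage CBA. Each passage was started with cells of dissociated tumours of the one before. F1 and F2 came between the early passages in that order, N2.2, N2.3 and Balb-c1 between N2.1 and the first of the late ones, and CBA was last. The labels give no sex, age or treatment of the hosts, and their strain only through the passage names, as Balb/c and CBA are inbred strains. The passages form 1 series, so the p values given here measure the spread between tumours within it.

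YUMM1.7 is a cell line from a C57BL/6 mouse melanoma driven by mutant Braf with loss of Cdkn2a. Germline or cancer-testis genes are silent in most adult tissues and are often switched on in tumours. Genes of this kind, many of them on the X chromosome, are held silent largely by DNA methylation in somatic cells. Cells of a melanoma are also known to change state, between a pigmented state run by Mitf and Sox10 and a dedifferentiated state rich in matrix genes.

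The leading members are shown by their promoters, 250 bases before to 50 bases after the RefSeq start, where that start lay within 133 bases of the gene's start in the GENCODE annotation. The CpG pairs, the sites where DNA methylation acts, are in capitals, and the sequences are from RefSeq on build GRCm38.p6, each on the strand of its gene. Magea3 and Zfp985 rose in the late tumours, and Rasgrf1, Foxf2 and Col4a6 fell.
Magea3 (chrX:154949520-154949819, minus strand): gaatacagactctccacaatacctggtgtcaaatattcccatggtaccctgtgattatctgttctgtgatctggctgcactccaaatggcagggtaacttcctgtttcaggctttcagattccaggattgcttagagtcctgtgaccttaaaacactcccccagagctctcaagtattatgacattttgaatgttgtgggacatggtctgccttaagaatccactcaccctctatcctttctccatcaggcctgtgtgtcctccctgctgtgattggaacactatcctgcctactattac
Zfp985 (chr4:147553027-147553326, plus strand): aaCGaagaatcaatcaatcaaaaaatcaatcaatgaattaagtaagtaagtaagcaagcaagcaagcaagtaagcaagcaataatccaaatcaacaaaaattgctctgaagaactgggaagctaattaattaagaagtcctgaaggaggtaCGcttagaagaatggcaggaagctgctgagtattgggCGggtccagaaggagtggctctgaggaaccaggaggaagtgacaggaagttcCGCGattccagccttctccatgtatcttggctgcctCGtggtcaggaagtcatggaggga
Rasgrf1 (chr9:89909525-89909824, plus strand): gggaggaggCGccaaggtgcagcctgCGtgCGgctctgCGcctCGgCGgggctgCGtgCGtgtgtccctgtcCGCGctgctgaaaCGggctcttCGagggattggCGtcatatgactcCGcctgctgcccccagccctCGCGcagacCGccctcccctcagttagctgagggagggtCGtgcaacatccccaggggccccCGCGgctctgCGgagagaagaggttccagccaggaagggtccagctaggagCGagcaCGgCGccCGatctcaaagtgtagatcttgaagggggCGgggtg
Foxf2 (chr13:31625566-31625865, plus strand): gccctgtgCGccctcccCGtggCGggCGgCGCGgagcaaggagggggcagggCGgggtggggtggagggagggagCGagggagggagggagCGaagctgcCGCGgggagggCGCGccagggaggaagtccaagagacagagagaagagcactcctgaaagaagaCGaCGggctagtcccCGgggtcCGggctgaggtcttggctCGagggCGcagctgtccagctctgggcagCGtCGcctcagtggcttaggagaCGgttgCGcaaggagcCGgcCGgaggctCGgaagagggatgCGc
Col4a6 (chrX:141474027-141474326, minus strand): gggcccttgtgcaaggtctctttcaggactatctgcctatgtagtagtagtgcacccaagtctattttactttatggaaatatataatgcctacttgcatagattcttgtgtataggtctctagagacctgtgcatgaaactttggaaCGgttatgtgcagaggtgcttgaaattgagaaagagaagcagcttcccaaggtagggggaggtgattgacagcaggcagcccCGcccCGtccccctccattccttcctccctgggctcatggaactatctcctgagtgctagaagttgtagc
The Magea3 window held 0 CpG pairs, as did 5.43% of 32851 RefSeq promoters of the same length, whose median was 7. Zfp985 held 6 and Col4a6 held 3. Rasgrf1 held 26 and Foxf2 held 27, and 16.9% and 15.5% of all promoters held as many. The promoters of Rhox5, Zfp936, Tfap2b, Morc1, Pet2 and Bhlhe22 are not shown, the first 3 because the RefSeq and GENCODE starts lay 3140 bases or more apart, so the 5 shown do not stand for all leading genes. Promoters were found for 54.8% of the tested genes higher without overlap and 70.7% of the lower ones, under the 80% asked for here, so a comparison of CpG content between the groups is void.

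Of the 562 genes, 232 were higher in every late tumour than in any early tumour and 330 were lower, together 1.63% of all gene rows. A filter on low values left 17491 genes for testing, among them 217 of the 232 and 317 of the 330. The share of tested genes without overlap was 1.24% for the higher and 1.81% for the lower direction, 3.05% in all. Limma called 427 genes at an adjusted p under 0.05, or 2.44% of those tested. Of these, 174 (0.995%) were higher late and 253 (1.45%) were lower late. Among the tested genes without overlap, 142 of 217 and 196 of 317 were called, but the same 12 values chose them, so these shares are a description. A further 89 called genes overlapped between the arms. The median log2 change over all tested genes was -0.06, against 1.70 for the genes higher without overlap and -1.23 for the lower ones.

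**Figure D1:**
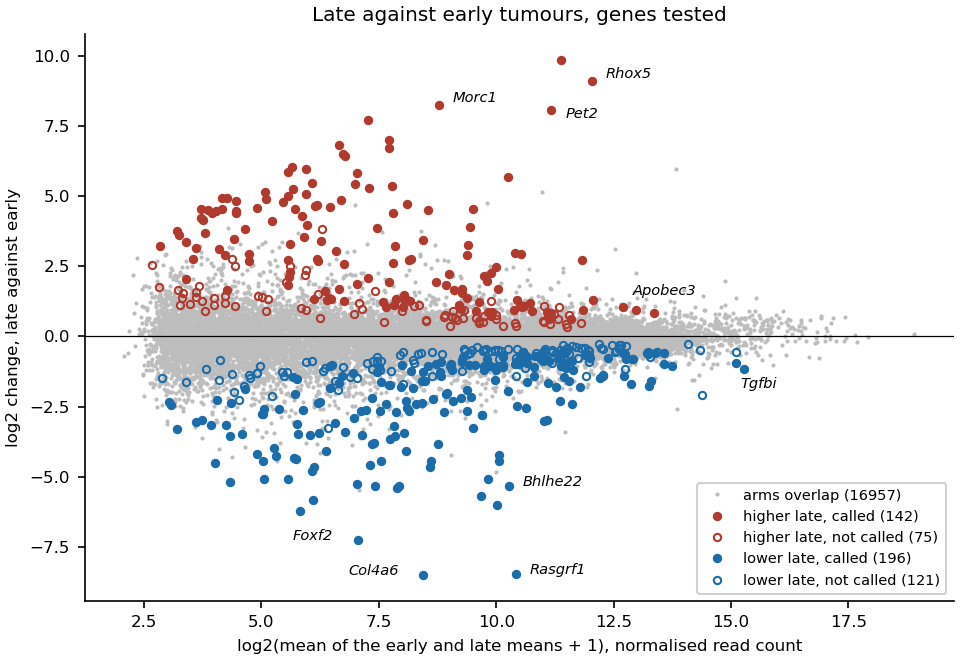
Each point is 1 of the 17491 tested genes, with the level over both arms on the x axis (log2 of the normalised read count plus 1) and the log2 change of late against early tumours on the y axis. Red and blue mark the 217 genes higher and the 317 genes lower in every late tumour, filled where limma called them. The genes higher late reach a log2 change of 9.86 and the genes lower late reach -8.50.

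The gap between the nearest tumours of the arms had a median of 0.30 on the log2 scale for tested genes in the higher and 0.17 in the lower direction. It exceeded 1 for 60 genes in the higher direction and 39 in the lower, and it was below 0.1 for 55 and 110. The genes lowest in that gap were Utp14a, a ribosome biogenesis factor, and Dmac2 in the higher direction and Sema6d, a semaphorin, and Dusp7, a phosphatase of MAP kinases, in the lower. Utp14a reached 1384 in its highest early tumour and 1387 in its lowest late one. Just outside, among called genes, lay Ndufb2, Pcdhb9, Foxred2 and Pcdh1, with the nearest late tumour inside the early range by less than 0.1 on the log2 scale. The late tumour nearest to the early range was Balb/c-2 B for 72 genes in the higher and 94 in the lower direction, and Balb/c-2 A for 65 and 73. Without Balb/c-2 B, 459 genes were higher and 543 were lower without overlap, and limma called 266 and 349.

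Each sample description ends in a code and a suffix, read here as flow cell and lane, names that the labels do not give. The suffix went with the code in every tumour, and the arm and this code nearly coincided. All 6 early tumours and Balb/c-2 A were on a first flow cell and the other 5 late tumours on a second. Every gene without overlap separates Balb/c-2 A from the early tumours of its own flow cell, since the rule asks for it. For the tested genes in the higher direction Balb/c-2 A differed from the early mean by a median log2 of 1.62, and the 5 late tumours of the second flow cell by 1.78. In the lower direction these medians were -1.05 and -1.27. The rule chose the genes by these same values, so the 4 medians are a description and no test of the flow cell. With flow cell as a covariate, a fit that rests on Balb/c-2 A for the difference between arms, limma called 17 genes higher and 11 lower. Of these 28 genes, 21 were without overlap. Balb/c-2 A had a summed level of 113800 for the list of B and plasma cell genes, against 7497 to 18030 in the other 11 tumours, and 4 of the remaining 7 genes are B cell genes (Cd79a, Cd79b, Pax5 and Tnfrsf13c). The 21 include Rhox5, Morc1, Magea3, Zfp985, Zfp936 and Zfp977 in the higher direction and Rasgrf1, Col4a6, Nrk, Foxf2, Bhlhe22, Slit2 and Dio2 in the lower. With passage as a random block, since tumours of a passage share a source, limma called 92 genes higher and 100 lower, all of them among the 427 and 183 of them without overlap.

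Some of the genes with the largest rises, such as Zfp985 and Morc1, were read at most 16 times in all 6 early tumours, and others, such as Pet2 and Rhox5, were already read in F0, with 211 and 126 early reads. Of 67 genes of the germline and cancer-testis list in the table, 29 were tested. Limma called 6 higher (Rhox5, Morc1, Magea3, Magea6, Magea8 and Lin28b) and 0 lower, against 0.995% and 1.45% of all tested genes. At an unadjusted p under 0.05 limma gave 11 higher and 4 lower. The list median was 0.80, against -0.06 over all tested genes. Of the 6 called, all but Rhox5 passed the low-value filter only through late values, so these shares and this median are a description. All 6 were also called with passage as a random block.
Rhox5, a homeobox factor of the reproductive tract, lies on the X chromosome (mm10, 37804842 to 37808876). Its normalised read count ran from 0 to 47.2 (median 15.4) in the early tumours and from 2507 to 18827 (median 7200) in the late tumours. The highest late value was that of CBA B and the lowest that of Balb/c-2 B, and the arms lay far apart. The log2 change was 9.10 ± 0.83 (SE), with a limma adjusted p of 4.21e-05. Morc1, an ATPase that silences transposons in the male germline of mice (chromosome 16, 48431237 to 48630900), ran from 0 to 7.77 (median 2.38) in the early arm and from 576.2 to 1058 (median 938.5) in the late arm. Its late mean was 872.2 ± 200.7 (SD, n = 6), and no early tumour came near it. The log2 change was 8.25 ± 0.51 (SE; limma adjusted p = 1.68e-06).

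Genes of the Magea family, the mouse counterparts of the melanoma antigens first found in patients' tumours, lie side by side on X between 154924012 and 154995850. Of 8 in the table, 3 passed the filter on low values, and all 3 rose. None of the 3 reached 10 in 3 or more early tumours, so they passed the filter only through late values. Magea3 went from 0 to 9.64 (median 1.97) early to 134.0 to 674.8 (median 382.5) late, a log2 change of 6.98 ± 0.63 (SE; limma adjusted p = 4.08e-05). Magea8 went from 0 to 28.9 early to 195.1 to 564.0 late, and its 3 N2.1 values were all 0. The log2 change of Magea8 was 6.71 ± 0.89 (SE; limma adjusted p = 0.000995). Magea6 was low in both arms, at most 0.954 early and 3.43 to 43.6 late. Of the 100-base windows in the annotated transcripts of Magea3, Magea8 and Magea6, 22.6%, 21.4% and 16% also occur in a transcript of another gene, so some of their reads could have been shared. Lin28b, an RNA-binding protein that blocks the maturation of let-7 microRNAs, went from 0 to 9.64 early to 20.2 to 148.2 late, with a log2 change of 4.78 ± 0.74 (SE; limma adjusted p = 0.00297).

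Pet2, also on X (89403848 to 89409689), was 0 to 94.5 early and 3142 to 6268 late. It rose by 8.07 ± 0.88 (SE) on the log2 scale (limma adjusted p = 0.000209). The gene named 3830417A13Rik, which the naming rule leaves out as a clone name, had the largest log2 change of all, 9.86 ± 0.72 (SE), from 0 to 7.77 early to 718.6 to 9389 late (limma adjusted p = 5.62e-06). Its late values split into 3 tumours at 8742 to 9389 (Balb/c-2 A, CBA A and CBA C) and 3 at 718.6 to 2044. Rhox5, Morc1, Pet2 and 3830417A13Rik share 0% of their transcript windows with other genes. Several of these genes were lower in N2.1 than in F0 before they were high late. Rhox5 averaged 36.2 in F0 and 5.95 in N2.1, and Pet2 averaged 64.1 and 5.46.

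**Figure D2:**
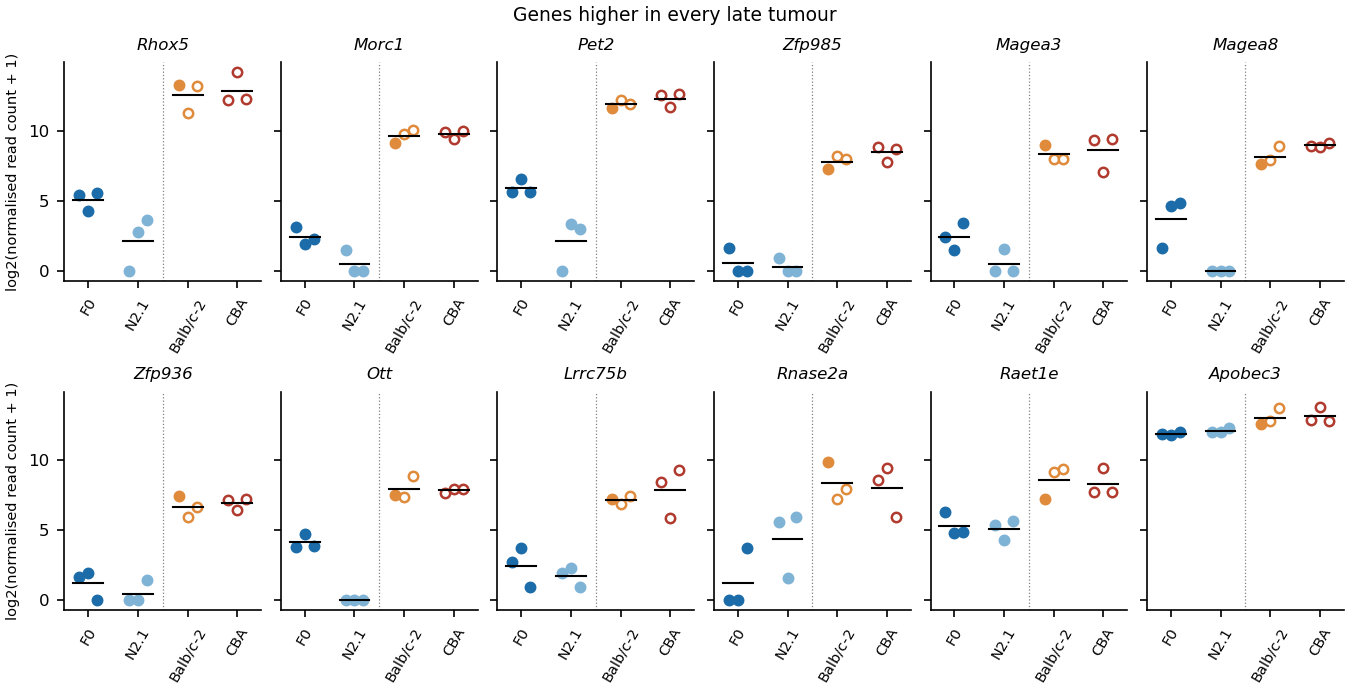
Normalised read counts of 12 genes higher in every late tumour, as log2 of the value plus 1, with 1 point per tumour and a bar at the mean of each passage. Open points are tumours of the second flow cell, and the dotted line separates early from late. Morc1 and Zfp985 lie low in the 6 early tumours, Rhox5 reaches 47.2 in F0, and all 3 are far higher in all 6 late tumours, including the late tumour of the first flow cell, while Apobec3 is present throughout.

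Zinc finger genes numbered Zfp900 to Zfp999 were among the leading genes. These genes encode DNA-binding proteins of a family whose best-known members recruit silencing to transposons. Of the 54 tested, 5 were higher in every late tumour (Zfp985, Zfp979, Zfp977, Zfp976 and Zfp936), of which Zfp976 was not called (limma adjusted p = 0.0548), and 0 were lower, with a median log2 change of 0.19. Zfp978 was called although its arms overlapped, so that 5 of the 54 were called higher, against 0.995% of all tested genes called higher and 1.24% higher without overlap. This range of numbers was chosen after values were seen, and Zfp985 and Zfp936 passed the low-value filter only through late values. The shares of this range are thus a description. Zfp985 was read 3 times in all 6 early tumours and ran from 153.8 to 476.3 (median 273.8) in the late tumours. The ratio of its means was 578, with an exact 95% counting interval of 212 to 3010, and the limma log2 change was 7.71 ± 0.43 (SE; adjusted p = 8.67e-07). Zfp936 was at most 2.86 in early tumours and 62.5 to 171.9 in late ones, a log2 change of 5.98 ± 0.49 (SE; limma adjusted p = 2.03e-05). Zfp985 and Zfp979 are neighbours on chromosome 4, and Zfp977, Zfp976 and Zfp936 lie together on chromosome 7, in a span from 42579783 to 43192109. Over all 361 tested genes with Zfp symbols, 9 were higher and 6 were lower without overlap, and the median log2 change was -0.07.

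Genes higher without overlap had their largest share on the X chromosome. Of the 592 tested genes of X, 40 were higher in every late tumour, or 6.76%, against 1.05% of 16899 tested genes elsewhere. The next chromosome was 6, with 1.85%. Of the 40, 30 had a log2 change above 3. Some of the 40, such as the Magea genes, passed the low-value filter only through late values, so these shares are a description. Among genes lower late the highest share was that of chromosome 8, with 3.22% against 1.81% over all tested genes.

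Neighbouring genes without overlap in the same direction were joined into runs with a window of 500 kb, and each run starts and ends at such a gene. The largest run lay on X between 147765991 and 149984982 and held 13 tested genes, all 13 of them higher in every late tumour and called. That its genes were all higher follows in part from how it was drawn. The run holds Ott, a gene transcribed in ovary and testis, Luzp4 and 11 predicted genes. Its median log2 change was 4.90. Summed over the 13 genes, the normalised read count was 104.3, 309.2 and 113.7 in F0 A to C, 10.4, 10.2 and 1.81 in N2.1 A to C, 1312, 1517 and 2937 in Balb/c-2 A to C and 1761, 1634 and 2264 in CBA A to C. Every late tumour was above every early one, and N2.1 was below F0, with 10 to 12 of the 13 genes at 0. Ott itself ran from 0 to 25.8 early and from 168.0 to 463.2 late, with a log2 change of 5.82 ± 0.87 (SE; limma adjusted p = 0.00233). With flow cell as a covariate 1 gene of the run was called, Gm15091.

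The transcripts of this run share much of their sequence with those of other genes. Between 51.8% and 100% of the 100-base windows in their annotated transcripts, with a median of 84.9%, occur in a transcript of another gene. How reads with several matches were counted is not stated in the labels, so the values of single genes of the run are uncertain and the 13 are not independent. Over all tested genes, 4.63% shared at least 50% of their windows, against 25.1% of the genes higher late and 1.89% of those lower late. Among tested genes that shared less, 17 of 530 on X were higher in every late tumour (3.21%), against 144 of 16097 elsewhere (0.895%). In the lower direction X held 16 of the same 530 genes (3.02%), against 1.83% elsewhere. With close copies set aside, X had a raised share in both directions. Some of the 17, such as the 3 Magea genes, passed the low-value filter only through late values. These shares are thus a description, and no test of them was run. The 17 include Rhox5, Pet2, Gm773, Dusp9, a phosphatase of MAP kinases, Renbp, Xlr and the 3 Magea genes.

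**Figure D3:**
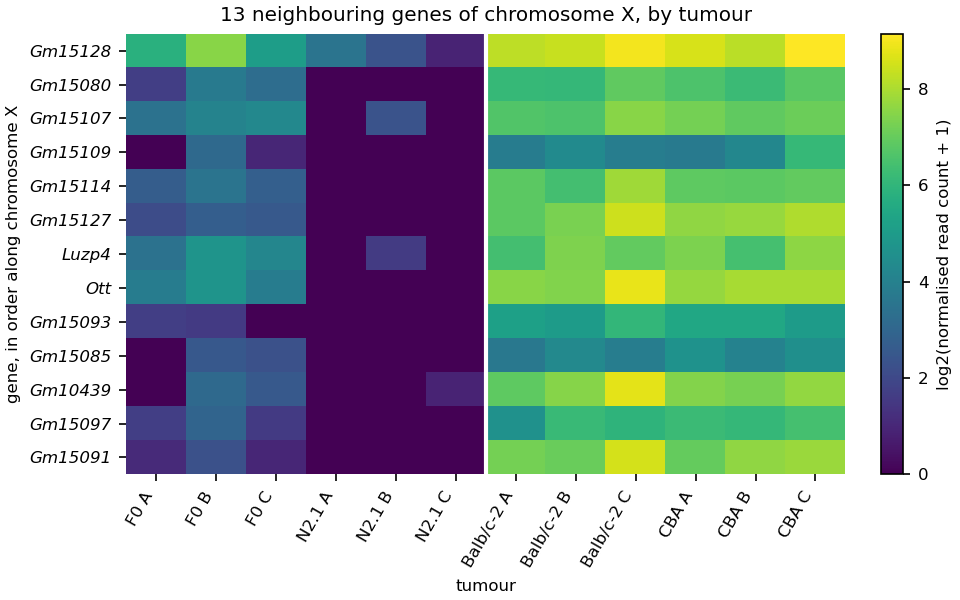
Normalised read counts, as log2 of the value plus 1, of the 13 genes of the run on chromosome X (rows, in order along the chromosome) in the 12 tumours (columns), with a white line between early and late tumours. All 13 genes are higher in each late tumour than in any early tumour, and most are at 0 in N2.1.

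**Figure D4:**
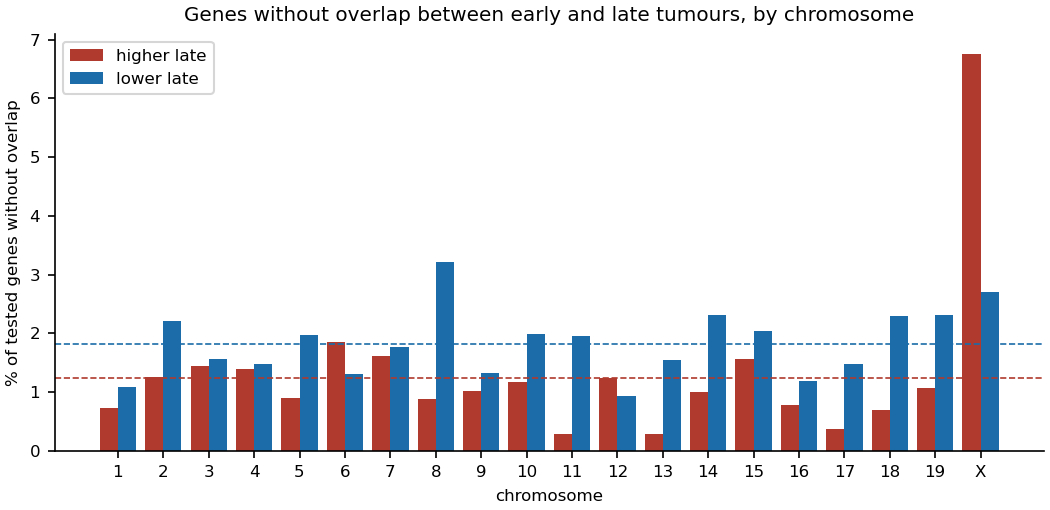
Percent of the tested genes of each chromosome that were higher (red) or lower (blue) in every late tumour than in any early tumour, with dashed lines at the share over all tested genes, 1.24% and 1.81%. The red bar of X stands at 6.76%, and the tallest blue bar, of chromosome 8, at 3.22%.

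Pseudogenes made up 24% of the tested genes higher without overlap (52 genes), 1.6% of those lower and 7.5% of all tested genes. At least 50% of the transcript windows were shared for 30 of the 52. Of 122 tested ribosomal protein genes with pseudogene symbols, 12 were higher without overlap and 5 were called, with a median log2 change of 0.76. Over all tested genes, 1.24% were higher without overlap and 0.995% were called higher. Rps13-ps2, chosen after its values were seen, averaged 253.9 early and 1788 late, with a log2 change of 2.45 (limma adjusted p = 0.0138, or 0.0668 with passage as a random block). How reads shared with parent genes were assigned is not stated in the labels, so these values are uncertain.

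Several single genes of other roles also rose. Raet1e, a ligand of the NKG2D receptor of natural killer cells, ran from 19.4 to 76.6 (median 35.3) in the early arm and from 149.6 to 698.5 (median 389.8) in the late arm. Its log2 change was 3.22 ± 0.46 (SE; limma adjusted p = 0.00184). Raet1e is also on a list of genes known to differ between C57BL/6 and other strains, and 26.8% of its transcript windows are shared with other genes. Of the 26 tested genes of that list, 1 was called higher and 1 lower, against 0.995% and 1.45% of all tested genes. The part of host strain was not tested. Apobec3, a cytidine deaminase that restricts retroviruses, ran from 3590 to 4996 (median 4227) early and from 6125 to 14053 (median 7243) late. It rose by 1.06 ± 0.22 (SE) on the log2 scale (limma adjusted p = 0.0215, or 0.0839 with passage as a random block).

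Gatm, the first enzyme of creatine synthesis, ran from 4666 to 6122 early and from 8159 to 17262 late, a log2 change of 0.94 ± 0.18 (SE; limma adjusted p = 0.0164, or 0.0516 with the passage block). Gsto1, a glutathione transferase, ran from 5457 to 9012 early and from 9842 to 18059 late, a log2 change of 0.84 ± 0.19 (SE; limma adjusted p = 0.0353, or 0.0916 with the passage block). It was the single gene called among 51 tested genes of oxidative stress and glutathione. By comparison, 0.995% of all tested genes were called higher and 1.45% lower. Rnase2a, a ribonuclease known from eosinophils, ran from 0 to 61.4 early and from 62.3 to 958.9 late, so that the arms nearly touched although the log2 change was 5.37 ± 1.10 (SE; limma adjusted p = 0.0218, or 0.0719 with the passage block). Lrrc75b ran from 0.903 to 12.4 early and from 58.1 to 635.0 late (log2 change 5.43 ± 0.62 SE, limma adjusted p = 0.000339).

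Over all tested genes, 0.995% were called higher and 1.45% lower. Of 84 tested genes on a list of developmental transcription factors, which does not hold all such factors, 2 were called higher and 4 lower. Both that rose were T-box factors. Tbx20, known from heart development, ran from 14.4 to 356.5 early and from 536.5 to 1927 late, and its N2.1 values (14.4 to 46.9) lay below its F0 values (141.2 to 356.5). Tbx15 ran from 156.5 to 364.2 early and from 715.0 to 1102 late, a log2 change of 1.66 ± 0.23 (SE; limma adjusted p = 0.0012). Some further genes, outside that list, were chosen after their values were seen. The homeobox factors Isl2, Hmx2 and Dlx4 and the grainyhead factor Grhl2 were called higher without overlap, with log2 changes of 4.46, 3.28, 2.67 and 3.15. Grhl2 was not called with passage as a random block (limma adjusted p = 0.0795) or by edgeR (adjusted p = 0.0649). Foxd2, Sox7 and Sox12 were called lower without overlap, with log2 changes of -1.25, -3.21 and -2.67. Lmo1, a LIM-only cofactor of transcription, averaged 61.9 early and 1392 late. Crabp2, a retinoic acid binding protein, averaged 934.8 early and 6315 late. Tnnt2, cardiac troponin T, averaged 34.0 early and 713.3 late. All 3 were called by limma, Lmo1 with a log2 change of 4.52, Crabp2 with 2.73.

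Mkrn3, a paternally expressed imprinted gene, and Cntn3, a neural adhesion protein, were higher in every late tumour without passing the test. Mkrn3 was 27.0 to 57.3 in F0, 0 to 1.89 in N2.1 and 60.7 to 195.7 in the late tumours (limma adjusted p = 0.0542). Cntn3 was 2.89 to 18.1 early and 19.9 to 340.6 late (limma adjusted p = 0.111).

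Some of the largest falls, such as those of Col4a6 and Foxf2, left at most 9 reads in all 6 late tumours. Others, such as Bhlhe22 and Tfap2b, kept 496 and 386 late reads. Rasgrf1, a guanine nucleotide exchange factor of Ras and an imprinted gene read from the paternal copy in mouse brain, lies on chromosome 9 (89909908 to 90026977). Its normalised read count ran from 1089 to 6172 (median 2309) in the early tumours and from 1.25 to 10.7 (median 5.97) in the late ones. N2.1 was above F0, with means of 4012 and 1429. The log2 change was -8.46 ± 0.47 (SE), with a limma adjusted p of 8.67e-07. Of the 22 tested Ras exchange factors and regulators Rasgrf1 was the single one called, against 1.45% of all tested genes called lower and 0.995% higher. The list had a median log2 change of -0.40.

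Col4a6, a chain of the type IV collagen of basement membranes, ran from 232.1 to 1601 (median 486.1) early. It was read 4 times in all 6 late tumours, with 0 in all 3 of Balb/c-2 and at most 2.49 elsewhere. The log2 change of Col4a6 was -8.50 ± 0.57 (SE; limma adjusted p = 2.74e-06). Nrk, a kinase on the X chromosome, ran from 29.9 to 326.0 early and was read once late, in Balb/c-2 B. The ratio of its means was 709.9 in favour of the early arm, with an exact 95% counting interval of 119.9 to 26380.

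Developmental transcription factors were among the genes with the largest falls. Foxf2, a forkhead factor of connective tissue development, was even in the early tumours, at 213.1 to 306.4 (median 275.2), and was read 9 times late, with 0 in 4 of 6 tumours. Its log2 change was -7.27 ± 0.51 (SE; limma adjusted p = 3.4e-06). Bhlhe22, a basic helix-loop-helix factor of neurons, ran from 2042 to 3115 (median 2258) early and from 18.04 to 211.1 (median 65.5) late, a log2 change of -5.34 ± 0.52 (SE; limma adjusted p = 7.45e-05). Tfap2b, a factor of the neural crest, the embryonic source of melanocytes, was already lower in N2.1. It was 2362 to 5370 in F0, 434.4 to 948.3 in N2.1, 19.8 to 109.8 in Balb/c-2, and 0 to 168.4 in CBA. The log2 change of Tfap2b was -5.99 ± 1.21 (SE; limma adjusted p = 0.0198, or 0.061 with the passage block). Eya1 and Foxc2 were the other 2 of the 4 called lower, with means of 127.3 and 2419 early and 5.37 and 1157 late. The list of 84 had a median log2 change of -0.31.

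**Figure D5:**
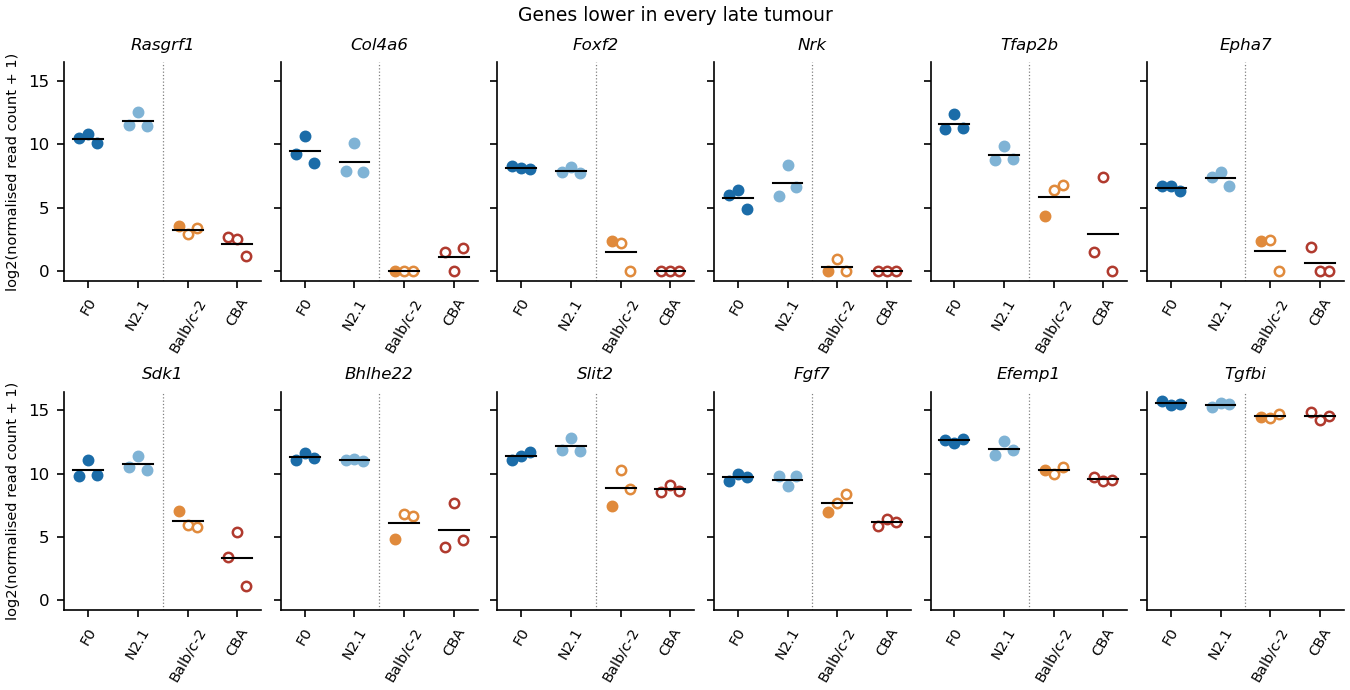
Normalised read counts of 12 genes lower in every late tumour, as log2 of the value plus 1, with 1 point per tumour and a bar at the mean of each passage. Open points are tumours of the second flow cell, and the dotted line separates early from late. Rasgrf1, Col4a6, Foxf2 and Nrk drop to a few reads or 0 late, Tfap2b is already lower in N2.1 than in F0, and Tgfbi falls by 0.95 on the log2 scale from a high level.

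Some genes of adhesion and guidance fell, against a background of 1.45% of all tested genes called lower and 0.995% called higher. Of 57 tested receptor tyrosine kinases and ligands, 3 were called lower (Epha7, Fgf7 and Efna5) and 1 higher (Ephb2), with a median log2 change of -0.52. With the passage block 2 were called, Epha7 and Fgf7. Epha7, an ephrin receptor, ran from 80.9 to 232.2 early and from 0 to 4.67 late, a log2 change of -5.85 ± 0.56 (SE; limma adjusted p = 6.52e-05). Fgf7, a growth factor for epithelial cells, ran from 529.7 to 988.6 early and from 58.6 to 338.0 late, with all 3 CBA values below all 3 of Balb/c-2. Its log2 change was -2.69 ± 0.39 (SE; limma adjusted p = 0.00194).

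Of 51 tested axon guidance and neural adhesion genes, 3 were called lower (Slit2, Slit3 and Plxna4) and 0 higher, with a median log2 change of -0.53. Over all tested genes, 1.45% were called lower and 0.995% higher. Slit2, the secreted ligand of Robo receptors, ran from 2183 to 7177 (median 3463) early and from 172.8 to 1272 (median 409.8) late, a log2 change of -2.98 ± 0.40 (SE; limma adjusted p = 0.00115). Slit3 and Plxna4 overlapped between the arms. Sdk1, an adhesion protein of synapses, ran from 890.2 to 2712 early and from 1.25 to 130.6 late, and Unc13c, which primes synaptic vesicles, from 141.0 to 626.9 early and from 0 to 15.4 late. Their log2 changes were -5.69 ± 0.80 and -5.34 ± 0.66 (SE), with limma adjusted p values of 0.00163 and 0.000576. Fjx1 fell first in N2.1, at 114.1 to 238.4 against 689.0 to 830.6 in F0, and was 0 to 41.3 late (log2 change -5.32, limma adjusted p = 0.00606). Of 39 tested cadherins and protocadherins 2 were called lower (Cdh6 and Pcdh1). The clustered protocadherins, whose near copies and shared exons leave their reads uncertain, went both ways. Of 19 tested Pcdhg genes 4 were called lower, 3 of them without overlap, and 0 were called higher. Among 19 tested genes of the span of chromosome 18 from 37300799 to 37619766, which holds Pcdhb3, 3 were called higher and 0 lower, with a median log2 change of 1.22. The ends of this span were set by genes higher without overlap. Pcdhb3 averaged 7.94 early and 28.8 late (log2 change 1.65, limma adjusted p = 0.0353), and Pcdhb9 averaged 28.2 and 147.7 (log2 change 2.23, limma adjusted p = 0.0421). Neither stayed called with the passage block, where Pcdhb3 had a limma adjusted p of 0.11. With passage as a random block, Slit2 was the single axon guidance gene still called, and Cdh6 the single cadherin.

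Some matrix genes fell, against a background of 1.45% of all tested genes called lower and 0.995% called higher. Of 68 tested collagens, basement membrane and matrix crosslinking genes, 5 were called lower (Col4a6, Lama4, Col18a1, Loxl1 and Efemp1) and 1 higher (Col7a1), with a median log2 change of -0.49. With the passage block 3 were called lower, without Col18a1 and Loxl1, and 1 higher. Efemp1, a fibulin of elastic fibres, ran from 2903 to 6930 (median 5901) early and from 680.7 to 1457 (median 939.9) late, a log2 change of -2.40 ± 0.26 (SE; limma adjusted p = 0.000184). Of 43 tested matrix proteases and inhibitors 2 were called lower. Mmp2, a gelatinase, ran from 5245 to 25752 early and from 2109 to 3774 late, a log2 change of -1.71 ± 0.31 (SE; limma adjusted p = 0.00895). Adamts2, which trims procollagen, averaged 4340 ± 2634 early and 949.6 ± 628.4 late (SD, n = 6), with a limma adjusted p of 0.0283, or 0.0506 with the passage block. Mgp, a matrix protein that limits calcification, ran from 18476 to 47981 early and from 1183 to 16925 late, and did not pass (limma adjusted p = 0.0685).

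The summed level of fibroblast markers ran from 378400 to 574700 in the early tumours and from 219400 to 422600 in the late tumours, overlapping by the value of CBA C. Of the 20 markers limma called 0, with 8 lower at an unadjusted p under 0.05, edgeR called 0 and DESeq2 called 4. Their median log2 change was -0.72, and 0 markers were at 0 in every tumour. Their part in the fall of matrix genes was not tested, and in whole tumours fewer cells of a type and less RNA per cell cannot be told apart.

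Signalling genes that fell included parts of the TGF-beta pathway, in which latent ligand held in the matrix acts through receptors and Smad factors. Of 50 tested genes of the TGF-beta and BMP list 4 were called lower (Ltbp2, Tgfbr3, Smad3 and Tgfbi) and 0 higher. Over all tested genes, 1.45% were called lower and 0.995% higher. The list had a median log2 change of -0.28. With passage as a random block 2 of the 4 were called, and Ltbp2 (limma adjusted p = 0.0956) and Smad3 (0.0823) were not. Tgfbi, a matrix protein induced by TGF-beta, ran from 39239 to 53369 (median 46330) early and from 19788 to 29356 (median 23620) late. It fell by 0.95 ± 0.14 (SE) on the log2 scale (limma adjusted p = 0.00233). Smad3, which carries the signal to the nucleus, ran from 2300.0 to 6135 early and from 1391 to 2099 late (log2 change -1.05 ± 0.22 SE, limma adjusted p = 0.0229). Tgfbr3, the co-receptor betaglycan, ran from 3536 to 5780 early and from 1384 to 2422 late (log2 change -1.21 ± 0.19 SE, limma adjusted p = 0.00288). Ltbp2, a binding protein of matrix fibrils, nearly touched between arms, with 951.4 the lowest early and 926.7 the highest late value. Fstl3, an inhibitor of activin, was lower in every late tumour but did not pass (limma adjusted p = 0.225).

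As a background for the next lists, 1.45% of all tested genes were called lower and 0.995% higher. Among 45 tested Wnt pathway genes Fzd8, a Wnt receptor, was the single one called. It ran from 422.9 to 690.6 early and from 45.5 to 148.4 late, a log2 change of -2.42 ± 0.31 (SE; limma adjusted p = 0.00078). Of 20 tested genes that read out MAP kinase activity, Spry4, a feedback inhibitor, was called lower by 0.87 on the log2 scale (limma adjusted p = 0.0401, or 0.139 with the passage block), and Dusp7 was lower without overlap but not called. Mavs, the adaptor of RNA sensing, ran from 1576 to 2433 early and from 1002 to 1332 late, a log2 change of -0.69 ± 0.15 (SE; limma adjusted p = 0.0294, or 0.0975 with the passage block). Cd244a, a receptor of natural killer cells, ran from 134.5 to 464.4 early and from 63.5 to 131.7 late (log2 change -1.73, limma adjusted p = 0.00838), and is the gene of the strain list that was called lower. Ank, a pyrophosphate transporter with an early mean of 54290, fell to 24870 (limma adjusted p = 0.034, or 0.115 with the passage block).

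Several abundant or well-known genes lacked overlap by small amounts and did not pass. Timp2, an inhibitor of metalloproteases, ran from 35661 to 59697 early and from 22897 to 34828 late (limma adjusted p = 0.144). Cdh13, Casp9, an initiator of apoptosis, and Xpc, a sensor of DNA damage, gave limma adjusted p values of 0.0678, 0.0942 and 0.128.

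The order of the passages was also counted in these genes. The same counts over all tested genes were not made, so those given here are a description and not a trait of these genes. In the higher direction, N2.1 had a mean between those of F0 and both late passages for 80 of 217 tested genes, and the 4 means rose in step from F0 through N2.1 and Balb/c-2 to CBA for 48. N2.1 lay above F0 without overlap for 22 and below F0 without overlap for 47. In the lower direction, N2.1 lay between for 162 of 317, the 4 means fell in step for 89, and N2.1 was below F0 without overlap for 41 and above it for 52. CBA had a mean beyond Balb/c-2 for 141 genes in the higher and 165 in the lower direction. Against N2.1 alone, 216 genes were called higher late and 317 lower.

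The melanoma label was checked with 19 melanocyte genes in the table. Pigment genes were near 0 in both arms, with Tyr, Mlana and Dct at medians of 0 early and late, while Mitf (medians 593.3 and 593.1) and Pax3 (1019 and 674.2) were present. Of the 13 tested, limma and edgeR called 0 and DESeq2 called 1, and limma gave an unadjusted p under 0.05 to 1 in each direction. Sox10 ran from 0.954 to 14.3 early and from 3.43 to 177.9 late and did not pass (limma adjusted p = 0.263).

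Of the fixed lists for other cells and programmes, 0 genes were called by limma for interferon response (73 tested, median log2 change 0.45), MHC class I presentation (29, 0.51), MHC class II presentation (13, 0.46), T cells (22, 0.15), macrophages and monocytes (24, -0.19), mast cells (14, -1.72), endothelium and pericytes (24, -0.68), proliferation (45, -0.06), hypoxia and glycolysis (35, 0.09), oxidative phosphorylation (34, 0.25) and repeat silencing (31, 0.03). All of these had ranges of summed level that overlapped between the arms. For some lists the early arm pooled unlike passages. The interferon sum was 62280 to 233400 in F0, 772900 to 1022000 in N2.1 and 304600 to 723700 late. The MHC class I sum was 212600 to 601300 in F0, 816400 to 1163000 in N2.1 and 693000 to 1220000 late. The mast cell sum was 5554 to 18370 in F0, 38240 to 58090 in N2.1 and 4394 to 10450 late. The absence of calls thus does not mean even levels over the passages. At an unadjusted p under 0.05 limma gave 3 higher and 1 lower for interferon response, 6 lower for macrophages, 3 lower for mast cells, 1 higher and 6 lower for endothelium, 1 lower for proliferation, 1 higher and 1 lower for hypoxia, 2 higher and 1 lower for oxidative phosphorylation, 1 higher and 2 lower for repeat silencing and 0 for the T cell and both MHC lists. edgeR called 0 genes of these lists, and DESeq2 called 6 mast cell, 3 repeat silencing and 1 proliferation gene. Cd274, H2-K1, B2m, Cdkn2a, Braf and Ddx3y overlapped and were not called. Xist, the RNA that silences 1 X chromosome in female cells, was 0 to 5.09 in 5 early tumours and 1396 in F0 C, and was 8911 in Balb/c-2 B, 1051 in CBA B and 0 to 18.9 in the other 4 late tumours.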

How the data were processed

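Total RNA of whole tumours was purified for polyadenylated RNA before library preparation, per the labels' protocols, which describe directional and non-directional kits without saying which was used. The authors deposited 1 table of normalised signal for genes and repeats. The submitters' processing notes name mm10 as a build and featureCounts 1.5.0-p3, StringTie 1.3.3b and HISAT2 2.0.5 as tools. Their roles, the strand setting and how reads with several matches were counted are not stated there. Every deposited signal value (100%) was a whole number of steps, each worth 1 read, within 0.1 reads, which gave 34721735 to 59404254 reads per tumour and 19392 to 26376 genes detected. Values are called normalised read counts, and 34364 gene IDs were matched to GENCODE M21.

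Late and early arms of 6 tumours were compared with limma 3.58.1 in R 4.3.3 on log2(value + 1), with 1 mean per arm (10 residual degrees of freedom), trended robust moderation and two-sided Benjamini-Hochberg adjustment over the 17491 genes that reached 10 in 3 or more tumours. Fold changes on this scale understate those of low genes. edgeR 4.0.16 and DESeq2 1.42.0 on the recovered reads, other scalings, the passage block, the flow cell covariate, N2.1 alone and leaving out each tumour were alternatives. Tumour letters A to C were checked for pairing and did not pair the tumours (correlations of deviations from -0.407 to 0.478). Tested on simulated data with 200 of the 17491 genes changed by 2-fold or 4-fold, limma recovered 23 of those changed by 2-fold and 99 of those changed by 4-fold, with 5 false calls. The simulated tumours were independent, with the same fixed dispersion for every gene and no effect of passage or flow cell. The false calls are thus not an error rate of the calls reported here. Shared windows are runs of 100 bases found in GENCODE transcripts of more than 1 gene. Counting intervals cover counting error alone.

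Named genes are, among genes without overlap averaging 100 or more in one arm and with no predicted, pseudogene or clone symbol, the 10 largest changes, the 4 most abundant and the 4 with the widest gap in each direction, up to 2 members per list, the genes nearest to the edge of the rule, and a fixed set of controls, 1 of which is not reported here. Genes called in a list are named with it. Genes outside this rule that are described with their values were chosen after these were seen, and so were the families picked by symbol. The members and lists were chosen with earlier results of these data known. Repeat rows were not used here.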

Additional observations from a re-analysis of the deposited data

Results flagged for a closer look

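Among 122 sets of 6 values, the early or the late arm of a named gene, 5 held a tumour far from the other 5 of its arm, and chance marks about 1 in 20. Timp2 was 59697 in F0 B against 35661 to 42574 in the other early tumours. Cd244a was 134.5 in F0 B against 318.9 to 464.4. Xist was 1396 in F0 C against 0 to 5.09. Fstl3 was 1.72 in Balb/c-2 C against 43.8 to 72.8 in the other late tumours. Nrk was 0.933 in Balb/c-2 B, which is 1 read, against 0.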

How the results depend on the processing

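The arm of a tumour and its flow cell, the passage lineage and any host strain cannot be fully told apart with this design, and at 34721735 reads or more per tumour genes of a few reads are limited by counting. Genes called higher late against early and genes called lower late against early moved by over 1.5 times under several settings. DESeq2 on the recovered reads called 537 higher and 578 lower, a mean per passage 334 and 519, passage as a random block 92 and 100, flow cell as a covariate 17 and 11, and the first flow cell alone, with 1 late tumour assumed to vary like the others, 0 and 4. edgeR on the recovered reads called 173 higher and 168 lower. Leaving out 1 tumour gave 103 (without CBA A) to 266 (without Balb/c-2 B) called higher, with 114 without F0 A, 110 without N2.1 B and 115 without CBA C. It gave 119 (without N2.1 B) to 349 (without Balb/c-2 B) called lower, with 133 without CBA A, 138 without F0 A, 149 without F0 B, 160 without Balb/c-2 C, 162 without N2.1 A, 165 without CBA B and 166 without N2.1 C or CBA C. Under the pseudocount of 5, no filter, TMM scaling, quantile normalization and N2.1 as the only early passage the called counts stayed within 1.5 times. The genes without overlap higher late numbered 940 against N2.1 alone and the genes without overlap lower late 1390. With Balb/c-2 A as the single late tumour the counts were 10275 and 4392. Fewer tumours must separate in both settings, which raises such counts by construction. Balb/c-2 A also had the most genes detected, 26376 against 19392 to 23954 in the other tumours. Its part in the uneven counts was not tested. Leaving out 1 tumour gave 248 to 459 higher and 357 to 543 lower without overlap. The tumour letter as a replicate block called 137 higher and 178 lower, and 32 of the 40 called named genes stayed called. Of those 40, 30 stayed called whichever tumour was left out, 27 with the passage block, 11 with flow cell as a covariate and 2 (Foxf2 and Bhlhe22) on the first flow cell alone. No called named gene changed direction under any of these settings. Of the named genes, 10 lost their call without at least 1 tumour, and the highest adjusted p values (limma) were 0.0698 for Adamts2 (without CBA A), 0.0782 for Ank (without N2.1 B), 0.0566 for Apobec3 (without F0 A), 0.0877 for Gsto1 (without N2.1 B), 0.082 for Ltbp2 (without F0 A), 0.0782 for Mavs (without N2.1 B), 0.109 for Ndufb2 (without N2.1 B), 0.104 for Pcdhb9 (without N2.1 B), 0.056 for Rnase2a (without N2.1 B), 0.0958 for Spry4 (without N2.1 B). Among uncalled controls the log2 change against N2.1 alone went to -0.079 for B2m, -0.015 for H2-K1, -1.04 for Cd274 and -0.66 for Mitf. With flow cell as a covariate, and on the first flow cell alone, it went to -2.76 for Xist, -0.30 for Braf, -0.22 for Mitf and -0.21 for Cd274. Leaving out 1 tumour, Mitf ranged from -0.093 to 0.341. The cause of these moves was not tested.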
